A study of Homo sapiens with 6 samples.

Results

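The 10 genes described here encode transcription factors that set the identity and maturation of natural killer (NK) cells: EOMES, TBX21, ID2, ID3, NFIL3, TOX, IKZF2, ZEB2, PRDM1 and RUNX3. They were picked by symbol from the 36601 genes of the count table, and all 10 had a row and passed the filter on low counts. The RNA came from NK-92, an NK lymphoma cell line kept in IL-2, with 3 libraries of cells that carry the control hairpin (shCtrl) and 3 of cells with miR155HG knocked down (shmiR155HG). Every library was made after 12 h with IL-2 at 1000 U/mL and IL-12 at 10 ng/mL, so the stimulated state is shared by both groups and no resting cells were compared. The knockdown was stable, and the labels do not say how many hairpins or clones stand behind a group. In the treatment label of shmiR155HG replicates 2 and 3 the gene's name carries another number, and these libraries were grouped by their titles. Separate cultures are not stated, so p-values measure the spread between these libraries, which may be technical.

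NK cells arise from lymphoid progenitors under a small set of transcriptional regulators. NFIL3, ID2 and TOX act early in mice, where ID2 sequesters the E proteins that drive B and T cell fates. The T-box factors T-bet (gene TBX21) and EOMES then govern maturation and activate effector genes such as IFNG, with RUNX3 as a partner. ZEB2 and BLIMP-1 (gene PRDM1) act in late maturation, and Helios (gene IKZF2) is an Ikaros family member linked to restraint of NK cell activation.

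Depth was 33454786 to 39157264 counts per library, and replicates of a group differed by more than sampling noise (mean chi-square 7.35 to 10.9 per gene for a pair, where sampling alone gives about 1). The targeted gene MIR155HG was at 73, 67 and 62 counts in the shCtrl libraries (here and below in the order of replicates 1, 2 and 3) and at 28, 19 and 10 counts after knockdown. Its log2 fold change was −1.78 (SE 0.43, adjusted p = 0.00450 by the quasi-likelihood test of edgeR). Of 8 NK markers 7 were tested, with a summed level of 1872 to 1945 CPM (counts scaled to library size with TMM factors, where 1 CPM is 33.4 counts in the shallowest library) in shCtrl and 1913 to 1960 in shmiR155HG libraries, and CD7 was nearly absent, with at most 32 counts. Among the NK markers NCR3 was lower in shmiR155HG cells (log2 fold change −0.24, SE 0.047, adjusted p = 0.000577 by edgeR). KLRC1 was higher (0.17, SE 0.051, adjusted p = 0.0252 by edgeR), and the other tested NK markers did not pass. Of 8 T cell markers 2 passed the filter, CD6 and TRAT1, and CD8B was at 0 in all 6 libraries. The T list summed to 21.8 to 27.4 CPM in shCtrl and 34.1 to 37.1 in shmiR155HG, carried by CD6, which was higher in shmiR155HG cells (log2 fold change 0.61, SE 0.10, adjusted p = 0.000101 by edgeR). Of 6 B cell markers only PAX5 passed the filter, and the other 5 summed to at most 1.34 CPM in any library. The myeloid list (7 genes, 2 tested, MPO at 0 throughout) summed to 13.0 to 14.6 CPM in shCtrl and 8.79 to 13.2 in shmiR155HG. The part of these marker levels in the results below was not tested.

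MIR155HG is the host transcript of miR-155, whose mature strand is shown because it is encoded in the knocked-down transcript. The level of the mature miRNA was not measured in these libraries. It is taken from RefSeq (GRCh38.p14, chr21:25573983-25574006, plus strand), with the seed, bases 2 to 8, in capitals.
hsa-miR-155-5p: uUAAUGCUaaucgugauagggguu
The 7 bases complementary to this seed (AGCATTA) were absent from the 3′ untranslated region of the canonical transcript of each of the 10 genes, while 10.9% of 18892 coding genes had at least 1 match. The regions searched ran from 301 nt in NFIL3 to 7662 nt in IKZF2. Absence of these letters does not bear on other kinds of site.

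At an adjusted p under 0.05 (quasi-likelihood test of edgeR, adjusted over all 12263 genes tested), 6 factors were called higher in shmiR155HG cells, namely RUNX3, EOMES, PRDM1, TBX21, TOX and ID2. IKZF2 was called lower, and NFIL3, ID3 and ZEB2 did not pass. The 7 called genes are 70% of the 10 factors, against 15.3% of all genes tested, of which 8.02% were lower and 7.26% higher. Without shCtrl replicate 2, or without shmiR155HG replicate 1, 4 factors were called, all 4 higher. Abundant genes pass more often: 29.3% of those averaging 100 CPM or more were called, and 6 of the factors lie there, all 6 of them called. Of the 3 factors between 10 and 100 CPM 1 was called, against 14.6% of genes in that range. The median log2 fold change of the 10 factors was 0.18, and that of all genes was 0.00097. For 8 of the 10 the libraries of the groups did not overlap, which held for 30.8% of all genes. By the exact test of edgeR with the thresholds of the study's methods (P below 0.01 without adjustment, and more than 1.2-fold), 4 factors were called, RUNX3, EOMES, TBX21 and PRDM1, against 8.29% of all genes. This rule called fewer genes in each direction here than the study reports, so these calls need not be the study's own. Fewer cells of a kind and less RNA per cell cannot be told apart in bulk RNA.

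**Figure D1:**
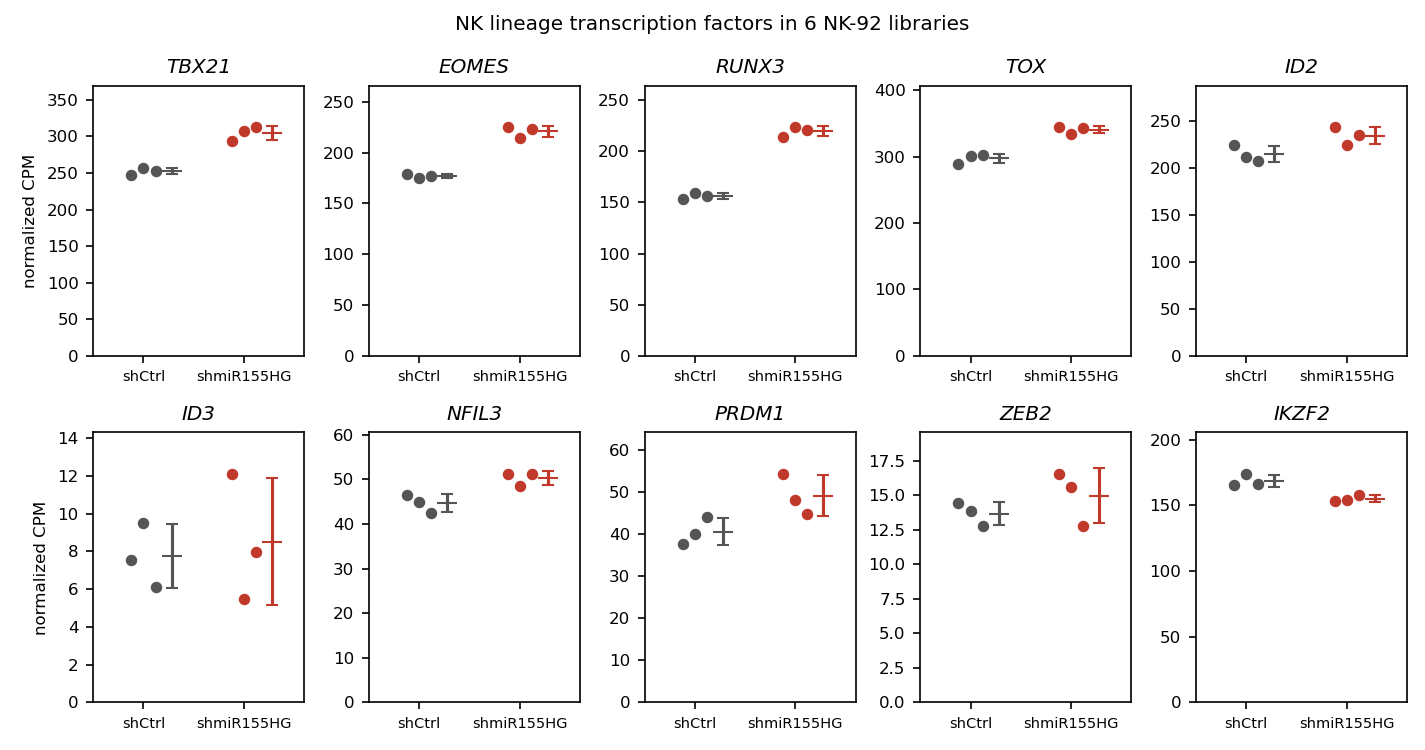
Normalized CPM (vertical axes, from 0) of the 10 factors in the 3 shCtrl (grey) and 3 shmiR155HG (red) libraries, with the mean and SD of each group beside the points. RUNX3 shows the widest gap, from at most 159 CPM in shCtrl to at least 214 in shmiR155HG libraries, while the points of ID3 and ZEB2 overlap.

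RUNX3, a Runt-domain factor that works with the T-box factors in NK and CD8 T cells, changed most. Its level was 153.6, 159.0 and 156.4 CPM in shCtrl and 214.1, 223.5 and 220.6 CPM in shmiR155HG libraries. The groups were far apart relative to an SD of 2.73 and 4.78 CPM. The rise was 1.40-fold, 0.49 on the log2 scale (SE 0.039, adjusted p = 5.17e-10 by edgeR). RUNX1, its paralog, differed by 0.14 on the log2 scale (SE 0.048, adjusted p = 0.0521 by edgeR), with groups that overlapped. The third paralog RUNX2 had 0.17 (SE 0.078, adjusted p = 0.153 by edgeR). Its groups nearly touched but did not overlap, as held for 30.8% of all genes. CBFB, the subunit shared by all RUNX proteins, was at 333.8 ± 16.2 CPM in shCtrl and 325.0 ± 9.35 CPM in shmiR155HG cells (SD, n = 3), with a 95% interval of the log2 fold change from −0.12 to 0.040. Within each library, the ratio of RUNX3 to RUNX1 counts was 1.16, 1.28 and 1.11 in shCtrl and 1.53, 1.51 and 1.47 in shmiR155HG libraries. The mean log2 ratio differed by 0.35 (two-sided exact permutation test, p = 0.1, which is the lowest possible with 3 against 3 libraries, and 0.25 after adjustment over 5 ratios). This ratio does not depend on how libraries are scaled.

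RUNX3 lies on the minus strand of chromosome 1 (hg38, 24899511 to 24965121) and starts from a distal and a proximal promoter, so its count sums transcripts of both. The 250 bases before each RefSeq start are shown for RUNX3 as the gene with the largest rise (RefSeq, GRCh38.p14), with the core RUNX motif (ACCACA, or TGTGGT on the other strand) in capitals.
RUNX3 distal, chr1:24965011-24965260, minus strand: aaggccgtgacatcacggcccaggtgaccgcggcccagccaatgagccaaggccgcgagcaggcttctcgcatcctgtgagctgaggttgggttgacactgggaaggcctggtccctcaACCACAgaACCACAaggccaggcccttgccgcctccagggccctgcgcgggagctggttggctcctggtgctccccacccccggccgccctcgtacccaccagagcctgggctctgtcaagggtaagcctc
RUNX3 proximal, chr1:24930277-24930526, minus strand: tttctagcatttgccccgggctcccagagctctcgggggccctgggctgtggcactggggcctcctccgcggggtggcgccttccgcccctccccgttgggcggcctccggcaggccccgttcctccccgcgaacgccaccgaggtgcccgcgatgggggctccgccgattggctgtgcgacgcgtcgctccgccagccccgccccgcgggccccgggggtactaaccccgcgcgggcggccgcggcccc
The distal window held 2 matches and the proximal window none, where 10.98% of 35116 windows of this length held at least 1. A match is a run of letters and not evidence of binding, and the counts do not tell which promoter was used.

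Both T-box genes rose together. EOMES was at 179.0, 175.4 and 176.9 CPM in shCtrl and at 225.0, 214.8 and 223.2 CPM in shmiR155HG libraries. Every shmiR155HG library lay above every shCtrl library, by 1.25-fold on the fitted scale (log2 fold change 0.32, SE 0.039, adjusted p = 7.74e-07 by edgeR). TBX21, which encodes T-bet, was at 247.8, 256.4 and 253.2 CPM in shCtrl and at 293.6, 307.0 and 312.5 CPM in shmiR155HG libraries, again without overlap. Its rise was 1.21-fold (log2 fold change 0.27, SE 0.037, adjusted p = 4.99e-06). The balance of the pair was near the same in both groups, with a TBX21 to EOMES count ratio of 1.38, 1.46 and 1.43 in shCtrl and 1.30, 1.43 and 1.40 in shmiR155HG libraries. The log2 ratio was lower by 0.050 in shmiR155HG cells (exact permutation test, two-sided, p = 0.4, adjusted 0.5), and the ratios of the groups overlapped.

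TBX21 lies on the plus strand of chromosome 17 (hg38, 47733236 to 47746122) and EOMES on the minus strand of chromosome 3 (27715949 to 27722711). The 250 bases before the RefSeq start of each are shown because the pair moved together. The RefSeq start of EOMES lies inside the GENCODE span just given, so its window does too.
TBX21, chr17:47732986-47733235, plus strand: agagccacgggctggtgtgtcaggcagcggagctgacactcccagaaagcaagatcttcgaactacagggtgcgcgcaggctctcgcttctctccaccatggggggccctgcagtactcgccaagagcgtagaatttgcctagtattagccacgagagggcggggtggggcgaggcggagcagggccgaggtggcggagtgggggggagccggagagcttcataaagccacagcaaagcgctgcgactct
EOMES, chr3:27722324-27722573, minus strand: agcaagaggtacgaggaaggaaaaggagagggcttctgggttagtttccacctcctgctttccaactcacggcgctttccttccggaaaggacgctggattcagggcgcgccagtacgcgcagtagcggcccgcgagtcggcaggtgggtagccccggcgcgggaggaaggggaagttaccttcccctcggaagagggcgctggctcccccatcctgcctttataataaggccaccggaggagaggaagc
Neither window held the RUNX core, the STAT palindrome (TTCNNNGAA, found in 6.57% of all windows) or the T-box motif (AGGTGTGA or TCACACCT, found in 0.786%). Both are rich in G and C, at 63.2% for TBX21 and 62.0% for EOMES. Nothing follows from these letters about factors bound elsewhere at either gene. Among the windows searched for the other factors, only that of ID3 held the STAT palindrome, with 1 match, which is not evidence of binding.

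TOX, an HMG-box factor needed for early NK cell development, had the highest CPM of the 10 genes. It stood at 289.7, 300.3 and 301.9 CPM in shCtrl and 344.4, 334.6 and 343.2 CPM in shmiR155HG libraries. The libraries did not overlap, and the rise was 1.15-fold (log2 fold change 0.20, SE 0.035, adjusted p = 0.000194 by edgeR), below the fold of 1.2 that the study's methods require. Its paralog TOX2, which also takes part in NK cell development, went the other way, from 106.7 ± 6.98 CPM to 74.6 ± 5.87 CPM (SD, n = 3; log2 fold change −0.52, SE 0.061, adjusted p = 5.27e-07). TOX4, a more broadly expressed relative, had a log2 fold change of 0.024 (95% interval −0.11 to 0.16), and TOX3 was at 0 in every library. The gene span of TOX overlaps that of the lncRNA AC090152.1 on the opposite strand by 108 bases. AC090152.1 had 904, 827 and 850 counts in shCtrl and 1018, 991 and 1085 counts in shmiR155HG libraries, so it was higher in the same group as TOX. Whether its exons overlap those of TOX was not examined. If they do, reads there could belong to either gene where strand was not used in counting. Any part of this in the TOX difference was not tested.

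ID2, an inhibitor of E proteins that NK cells require, had the highest level of the 10 genes per transcript length, and moved little. Its values were 224.5, 212.0 and 207.6 CPM in shCtrl and 243.4, 224.9 and 235.1 CPM in shmiR155HG libraries. Replicate 2 of shmiR155HG lay only just above replicate 1 of shCtrl. The fitted difference was 0.13 on the log2 scale (SE 0.041, adjusted p = 0.0327 by edgeR), and the call was lost in 6 of 17 alternative settings, where the adjusted p rose to as much as 0.184. ID2-AS1 is an antisense lncRNA whose gene span, introns included, overlaps that of ID2 by 3020 bases. It had 51 to 116 counts per library, against 7732 or more for ID2.

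ID3, a second inhibitor of the same family, was sparse and variable, at 7.56, 9.51 and 6.13 CPM in shCtrl and 12.1, 5.49 and 7.95 CPM in shmiR155HG libraries. Replicate 1 of shmiR155HG had the highest value and replicate 2 the lowest of all 6 libraries. The log2 fold change of ID3 was 0.14 with a 95% interval from −0.39 to 0.67 (adjusted p = 0.773 by edgeR), and it was −0.20 without shmiR155HG replicate 1, so these libraries do not settle its direction. The ID2 to ID3 count ratio ran from 20.1 to 41.0 over the 6 libraries with no separation of the groups (exact permutation test, two-sided, p = 1). Of the other family members ID4 was at 0 in every library and ID1 had at most 8 counts. Among the E proteins, which ID proteins hold off DNA, TCF3 was at 216.8 ± 9.16 CPM in shCtrl and 213.9 ± 3.79 CPM in shmiR155HG cells (SD, n = 3), with a 95% interval of the log2 fold change from −0.10 to 0.062. TCF12 had a log2 fold change of 0.039 (95% interval −0.068 to 0.15) and TCF4 one of −0.20 (−0.43 to 0.033), and none of the 3 passed the test.

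NFIL3, a basic leucine zipper factor at the start of NK cell commitment, was at 46.5, 45.0 and 42.5 CPM in shCtrl and 51.2, 48.4 and 51.3 CPM in shmiR155HG libraries. All 3 shmiR155HG libraries lay above the shCtrl libraries, but by a margin that did not pass after adjustment (log2 fold change 0.17, SE 0.068, unadjusted p = 0.0180, adjusted p = 0.0913 by edgeR). The lowest adjusted p in any of 17 alternatives was 0.0631.

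PRDM1, which encodes the repressor BLIMP-1, was at 37.6, 40.1 and 44.1 CPM in shCtrl and 54.4, 48.3 and 44.7 CPM in shmiR155HG libraries. The groups were nearly touching, with shmiR155HG replicate 3 just above shCtrl replicate 3. The fitted difference was 0.28 on the log2 scale (SE 0.079, adjusted p = 0.0163 by edgeR), and it fell to 0.20 (adjusted p = 0.151) without shmiR155HG replicate 1. The call was also lost without shCtrl replicate 1 (0.22, adjusted p = 0.10), without shCtrl replicate 2 (0.27, adjusted p = 0.0694) and without shmiR155HG replicate 2 (0.29, adjusted p = 0.0528). The gene span of PRDM1, introns included, overlaps that of the coding gene ATG5 on the opposite strand by 64517 bases. ATG5 had 2148 to 2387 counts against 1463 to 2088 for PRDM1. Whether their exons overlap was not examined, so it is not known if unstranded counting could mix them. BCL6, a repressor that opposes BLIMP-1 in lymphocytes, was at 4.01 ± 1.06 CPM in shCtrl and 4.73 ± 0.955 CPM in shmiR155HG cells (SD, n = 3; log2 fold change 0.24, 95% interval −0.25 to 0.73). ZNF683, which encodes the BLIMP-1 homolog Hobit, differed by 0.14 on the log2 scale (SE 0.066, adjusted p = 0.169), and BACH2 had at most 18 counts in a library.

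ZEB2, a zinc finger factor that acts in late NK cell maturation, was low, at 14.4, 13.9 and 12.8 CPM in shCtrl and 16.6, 15.6 and 12.8 CPM in shmiR155HG libraries. Replicate 3 of shmiR155HG lay beside the lowest shCtrl library, and the log2 fold change was 0.13 (95% interval −0.13 to 0.39, adjusted p = 0.560 by edgeR). ZEB1, its paralog, was at 16.7 ± 1.04 CPM in shCtrl and 14.8 ± 0.821 CPM in shmiR155HG cells (SD, n = 3), a log2 fold change of −0.18 (95% interval −0.42 to 0.059). The ZEB2 to ZEB1 ratio was 0.864, 0.882 and 0.716 in shCtrl and 1.15, 1.10 and 0.812 in shmiR155HG libraries, with groups that overlapped (exact permutation test, two-sided, p = 0.3, adjusted 0.5). ZEB2-AS1, an antisense lncRNA, had at most 13 counts in a library.

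IKZF2, which encodes Helios, was the only factor of the 10 called lower. It was at 165.4, 174.2 and 166.5 CPM in shCtrl and 153.8, 154.0 and 158.0 CPM in shmiR155HG libraries. The libraries did not overlap, but the difference was small, at −0.12 on the log2 scale (SE 0.041, adjusted p = 0.0467 by edgeR), and the call was lost in 14 of 17 alternatives. Leaving out shCtrl replicate 2 gave −0.096 (adjusted p = 0.209). The relatives of Helios moved in both directions. IKZF1, which encodes Ikaros, fell from 199.9 ± 8.57 to 163.0 ± 3.52 CPM (SD, n = 3; log2 fold change −0.29, SE 0.042, adjusted p = 9.14e-06), while IKZF3, which encodes Aiolos, rose from 378.4 ± 12.0 to 432.0 ± 8.39 CPM (0.19, SE 0.034, adjusted p = 0.000234). IKZF4 and IKZF5 had 95% intervals that span 0, from −0.51 to 0.17 and from −0.21 to 0.13. Since IKZF1 fell by more than IKZF2, the IKZF2 to IKZF1 count ratio was higher in shmiR155HG cells, at 0.953, 0.959 and 0.945 against 0.870, 0.847 and 0.817 in replicates 1, 2 and 3 (log2 difference 0.17, two-sided exact permutation test, p = 0.1, the lowest possible, adjusted 0.25).

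IKZF2 lies on the minus strand of chromosome 2 (hg38, 212999691 to 213152427). Its distal upstream window is shown because it is the only other window among these genes with the RUNX core, in capitals. TOX had no window to search.
IKZF2 distal, chr2:213152457-213152706, minus strand: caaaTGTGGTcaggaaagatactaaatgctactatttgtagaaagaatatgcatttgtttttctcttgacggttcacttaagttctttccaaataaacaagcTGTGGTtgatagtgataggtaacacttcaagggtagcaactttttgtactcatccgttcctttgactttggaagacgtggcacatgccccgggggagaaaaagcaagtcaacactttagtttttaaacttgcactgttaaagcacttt
This window held 2 matches and has a GC content of 38.0%, against 67.6% for the distal window of RUNX3. It is a description of the reference sequence and says nothing on binding.

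**Figure D2:**
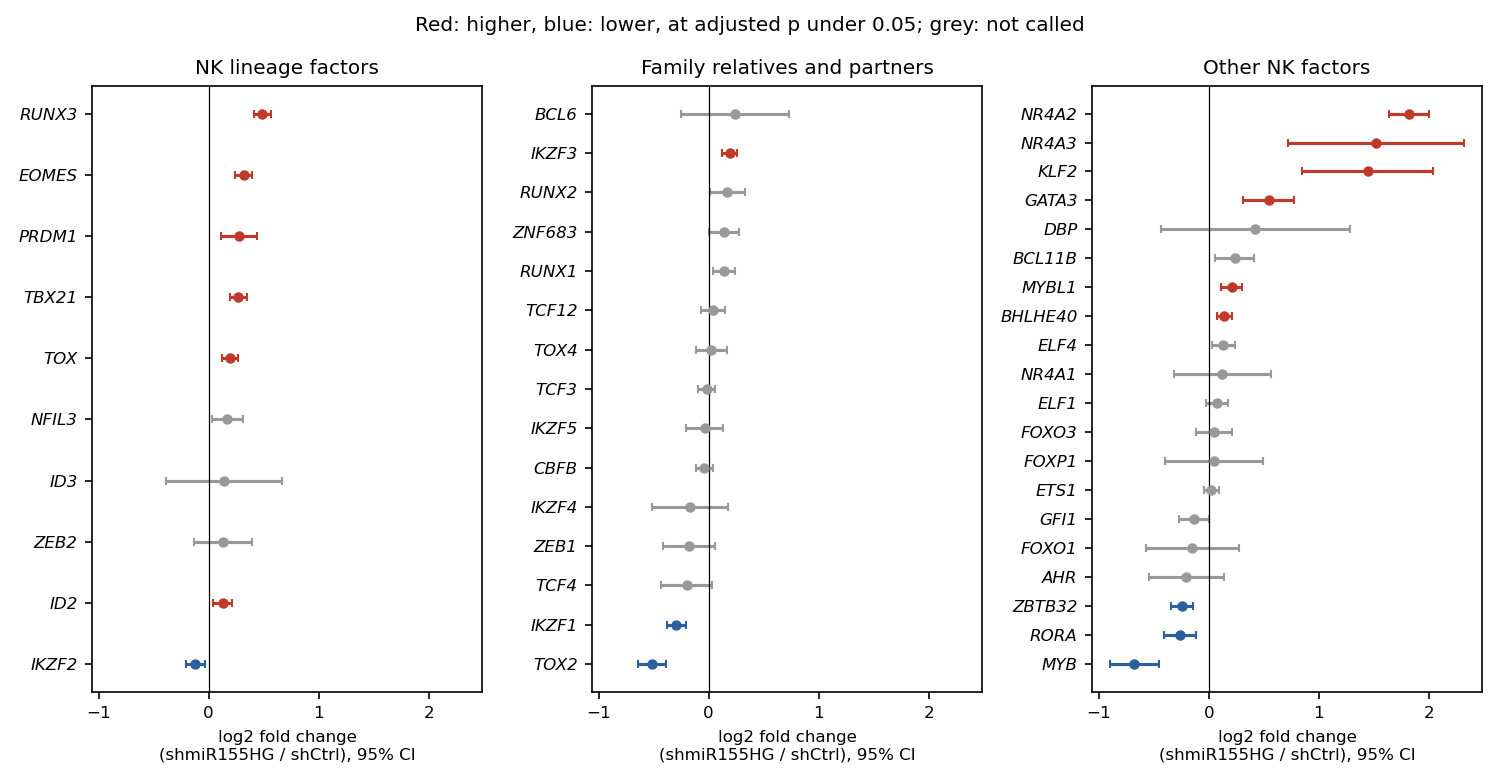
Log2 fold change of shmiR155HG over shCtrl (horizontal axis) with 95% intervals for the 10 factors, 15 tested family relatives and partners, and 20 tested other NK factors, with called genes in color. RUNX3 leads the factors at 0.49, TOX2 and IKZF1 lie lowest among the relatives, and NR4A2, at 1.82, lies far above every gene of the 3 panels other than NR4A3 and KLF2.

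Levels of different genes were compared as normalized CPM per kilobase of canonical transcript. In shCtrl cells the order from high to low was ID2 (165.3 ± 6.73), TBX21 (97.7 ± 1.69), TOX (72.9 ± 1.63), EOMES (54.3 ± 0.542), RUNX3 (36.6 ± 0.639), NFIL3 (21.7 ± 0.973), IKZF2 (17.6 ± 0.501), ID3 (8.14 ± 1.79), PRDM1 (7.89 ± 0.640) and ZEB2 (1.48 ± 0.0917; SD, n = 3 for each). ID3 and PRDM1 overlapped and changed places in shmiR155HG cells, where ID3 was at 8.97 ± 3.53 and PRDM1 at 9.54 ± 0.952 (SD, n = 3). All other neighbours stayed apart in all 6 libraries, so the order from ID2 to IKZF2, and ZEB2 in the last place, was shared by both groups. Canonical transcripts may not be those used in NK-92, which would shift these per-length levels but not the fold changes of the main test. The GC-corrected fold changes below use the GC content of the same transcripts and could shift too.

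Log2 fold changes of all genes rose with the GC content of the transcript, from a median of −0.054 in the lowest of 5 bins of equal size to 0.069 in the highest (Spearman rho 0.25 across 12216 genes, which are not independent replicates). Among the factors RUNX3 has a GC content of 60.5%, TBX21 59.6% and EOMES 51.3%, while IKZF2 has 35.8%, ZEB2 38.95% and TOX 41.0%. With the GC trend of each library removed, the log2 fold change was 0.44 for RUNX3, 0.30 for EOMES, 0.23 for TBX21, 0.25 for TOX, 0.17 for ID2 and 0.29 for PRDM1, and all 6 remained called (highest adjusted p = 0.0105, for PRDM1). IKZF2 moved to −0.059 (adjusted p = 0.373) and was no longer called.

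**Figure D3:**
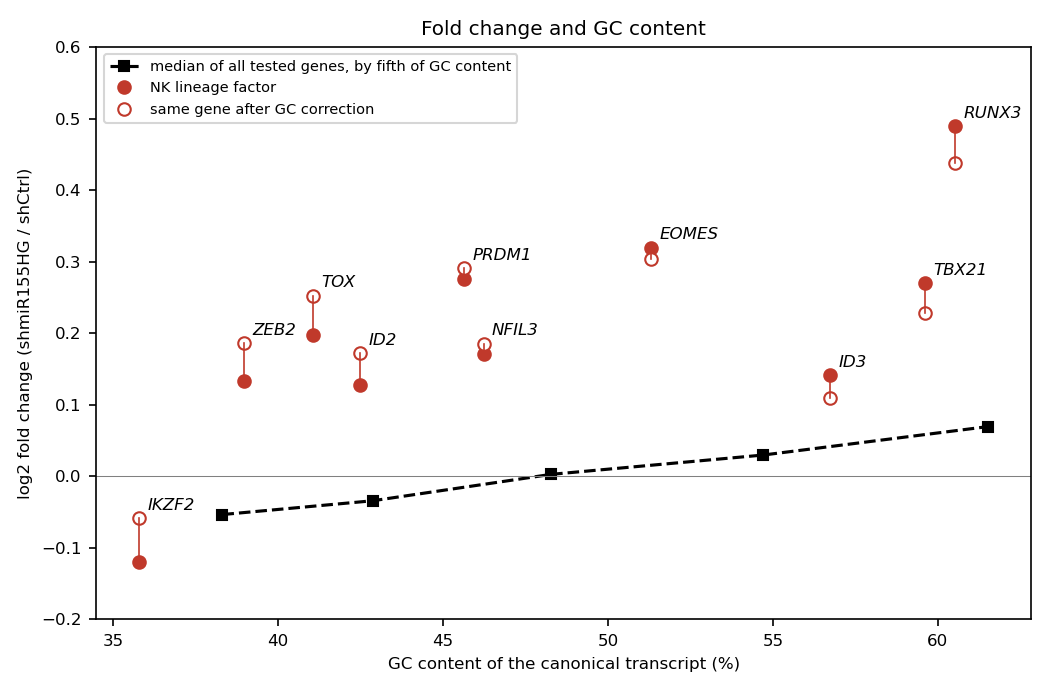
Log2 fold change (vertical axis) against the GC content of the canonical transcript (horizontal axis) for the 10 factors before (filled) and after (open) correction, with the median of all tested genes in 5 bins of GC content (squares). RUNX3 and TBX21, at the right, drop by a small part of their rise, whereas IKZF2, at the left, moves from −0.12 to −0.059.

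The lists of related genes were described in the same way. Of 19 paralogs, partners and antagonists of the 10 factors 15 were tested, 2 were lower (TOX2 and IKZF1), 1 was higher (IKZF3) and 12 did not pass, with a median log2 fold change of −0.019. This is 20% called, near the share of all genes. Of 28 other transcription factors of NK and innate lymphoid cells 20 were tested, 6 were higher, 3 lower and 11 not called, with a median of 0.098. This is 45% called, against 15.3% of all genes tested, of which 7.26% were higher and 8.02% lower.

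The higher genes of that list were led by NR4A2, an orphan nuclear receptor induced by activation, at 12.0, 13.8 and 13.7 CPM in shCtrl and 45.6, 46.7 and 47.5 CPM in shmiR155HG libraries, a 3.53-fold difference (log2 fold change 1.82, SE 0.088, adjusted p = 1.32e-14 by edgeR). NR4A3 had 21 to 37 counts in shCtrl and 56 to 102 in shmiR155HG libraries (log2 fold change 1.52, SE 0.39, adjusted p = 0.00763), while NR4A1 had a log2 fold change of 0.12 (95% interval −0.32 to 0.56). KLF2, a factor of lymphocyte quiescence and migration, had 37, 84 and 79 counts against 182, 180 and 164 (1.44, SE 0.29, adjusted p = 0.000894). GATA3, which takes part in NK and innate lymphoid cell development, went from 13.98 ± 1.09 to 20.4 ± 0.754 CPM (SD, n = 3; 0.54, SE 0.11, adjusted p = 0.00107). MYBL1 (0.21, SE 0.045, adjusted p = 0.00166) and BHLHE40 (0.14, SE 0.033, adjusted p = 0.00377) rose slightly.

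The 3 lower genes were MYB, a factor of progenitors and cycling cells, from 26.2 ± 0.800 to 16.4 ± 2.40 CPM (SD, n = 3; log2 fold change −0.67, SE 0.11, adjusted p = 5.52e-05), RORA (−0.26, SE 0.072, adjusted p = 0.0132) and ZBTB32, which supports NK cell proliferation (−0.24, SE 0.051, adjusted p = 0.00116). RORA lost its call in 6 of 17 alternatives. ETS1, at 415.5 ± 6.53 CPM in shCtrl and 422.6 ± 13.8 CPM in shmiR155HG cells (SD, n = 3), had a 95% interval from −0.045 to 0.094. LEF1, GATA2 and SPI1 were at 0 in every library, and TCF7, a factor of immature NK cells, had at most 18 counts.

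Textbook targets of the T-box factors moved in both directions. Of 10 listed genes 8 were tested, 4 were lower, 2 were higher and 2 did not pass, with a median log2 fold change of −0.11. This is 75% called, against 15.3% of all genes tested and 29.3% of those averaging 100 CPM or more. GZMB (−1.14, SE 0.036, adjusted p = 7.03e-19), IFNG (−0.41, SE 0.045, adjusted p = 1.40e-07), IL12RB2 (−0.39, SE 0.058, adjusted p = 1.80e-05) and PRF1 (−0.20, SE 0.038, adjusted p = 0.000419 by edgeR) fell. IL2RB, the shared chain of the IL-2 and IL-15 receptors (0.34, SE 0.032, adjusted p = 1.35e-08), and the chemokine receptor CXCR3 (0.28, SE 0.048, adjusted p = 0.000137) rose. CCL5 had a 95% interval from −0.12 to 0.062 and KLRG1 from −0.12 to 1.27, and S1PR5 and HLX, a homeobox factor downstream of T-bet, were at 0 in all 6 libraries.

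PAX5, a B cell identity factor on the list of B cell markers, was at 228.1, 240.6 and 263.5 CPM in shCtrl and 341.1, 340.3 and 343.5 CPM in shmiR155HG libraries. It rose by 0.49 on the log2 scale (SE 0.042, adjusted p = 1.70e-09 by edgeR), about as much as RUNX3. In any library CD22 had at most 2 counts, MS4A1 at most 5 and CD79A at most 43. Reads shared with overlapping transcripts at PAX5 were not analysed here.

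**Figure D4:**
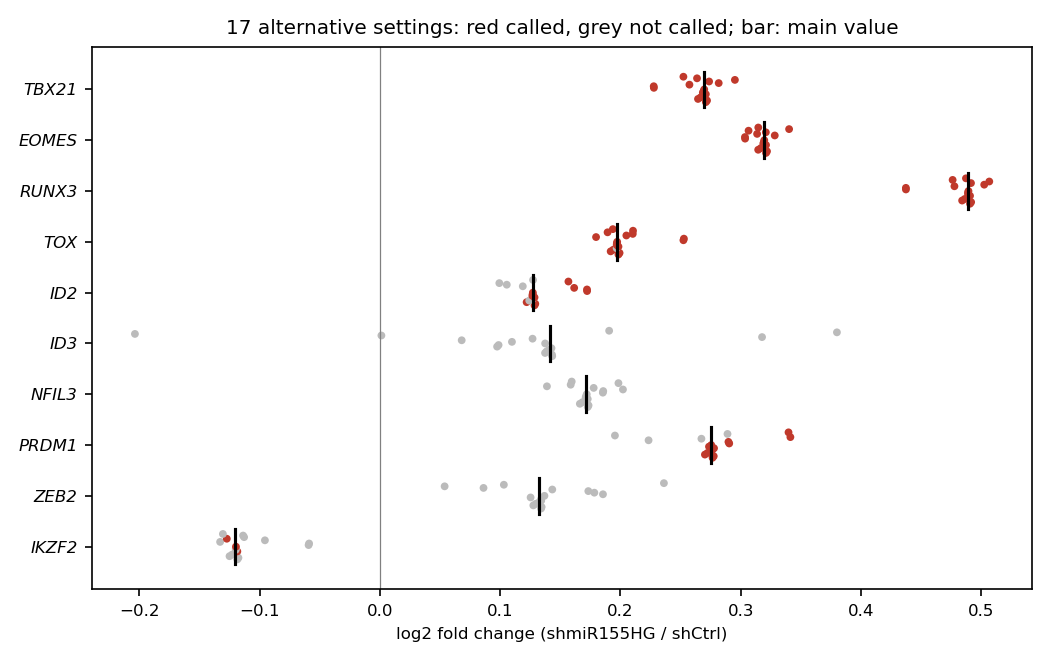
Log2 fold change (horizontal axis) of each factor in the 17 alternative settings (points, red where called and grey where not) and in the main test (black bars). The points of RUNX3, EOMES and TBX21 are red throughout, and TOX has 1 grey point. Those of ID2, PRDM1 and IKZF2 are mixed, and those of ID3 lie on both sides of 0.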

How the data were processed

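RNA was sequenced from 6 NK-92 libraries (3 shCtrl, 3 shmiR155HG). The authors captured poly(A) RNA, aligned read pairs of 150 bases to hg38 with HISAT2, and deposited whole-number counts per gene from StringTie and prepDE.py3, without normalization; tool versions, annotation release and strand use are not given in the sources used here. All sample columns were used. The analysis used edgeR 4.0.16 under R 4.3.3, keeping genes above 1 CPM in 2 or more libraries, with TMM scaling, robust quasi-likelihood test, Benjamini-Hochberg adjustment over 12263 genes, adjusted p under 0.05. CPM are counts scaled to library size with TMM factors, and SE and 95% intervals belong to the log2 fold change. Alternatives used DESeq2 1.42.0 and limma 3.58.1, among others. The methods were also run on counts simulated with the means and dispersions of these libraries and without a GC trend. The outcome is not reported here. Positions, lengths and GC content came from GENCODE 44 (hg38), which matched 99.4% of gene IDs, and sequences from RefSeq; 9 of the 10 factors had a promoter entry, and TOX did not. The factors, lists and tests were chosen with earlier results of these data known. Named genes were all 10 factors, MIR155HG, the ratio genes, the called genes of each list (at most 10 per list) and overlapping genes; other genes named for an interval or a 0 were chosen after their values were seen. Ratios within libraries used an exact permutation test. Same-numbered libraries of the groups did not deviate together.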

Additional observations from a re-analysis of the deposited data

How the results depend on the processing

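RUNX3, EOMES and TBX21 remained called higher in all 17 alternatives, with log2 fold changes of 0.44 to 0.51, 0.30 to 0.34 and 0.23 to 0.30. TOX (0.18 to 0.25) missed only the fold threshold of the exact test. ID3 ran from −0.20 (without shmiR155HG replicate 1) to 0.38 when 1 library was left out, and the log2 difference of the ID2 to ID3 ratio from −0.21 (without shmiR155HG replicate 2) to 0.30, with −0.13 without shCtrl replicate 2. The number of factors called lower was 1 in the main test and 0 with DESeq2's size factors, total counts, no filter, filterByExpr, the exact test, limma-voom, the replicate block, the GC correction and the GC correction with the replicate block, and 0 to 1 when 1 library was left out. Factors called higher numbered 6 in the main test, 5 with filterByExpr, 4 with the exact test and 4 to 5 when 1 library was left out, with 4 without shCtrl replicate 2 and without shmiR155HG replicate 1. With the exact test all genes lower numbered 466 and higher 551, family relatives higher 0 and other NK factors lower 1. Family relatives higher numbered 2 with total counts, with the GC correction and with the GC correction and replicate block, and 1 to 2 when 1 library was left out. All genes higher ran from 580 to 891 when 1 library was left out, and 580 was without shmiR155HG replicate 2; the cause of these changes was not tested.

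Replicate numbers are shared by the groups, but deviations of same-numbered libraries correlated at −0.053 to 0.0079 across 8789 genes. No shared deviation by number was seen, which cannot show whether the libraries were prepared in pairs. With the replicate block the log2 fold change was 0.49 for RUNX3, 0.32 for EOMES and 0.27 for TBX21, and among the factors the call of IKZF2 alone was lost (adjusted p = 0.0686 by edgeR). No scaling moved the median of all genes by over 0.1. Genes under about 10 CPM rest on fewer counts, and counting intervals do not cover PCR duplicates. ID3 had 209 to 465 counts per library, and its SD was 21.9% of the mean in shCtrl and 39.3% in shmiR155HG libraries.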
